A study of Mus musculus with 8 samples.

Results

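The PARP genes grouped as antiviral, Parp8, Parp9, Parp10, Parp11, Parp12 and Parp14, were described together with Dtx3l, the ubiquitin ligase partner of PARP9 (7 genes, the antiviral group), and beside Parp1 and Parp2, the DNA-repair members of the family. The 9 genes were picked by symbol, matched 1 Ensembl mouse identifier each among 41388 in every count file, and all 9 were among the 12002 genes with enough counts for a test. The cells were microglia, the macrophages that live in brain and spinal cord, sorted on the surface markers CD11b, CD45 and CD11c out of C57BL/6 adults, and total RNA of 8 libraries was sequenced. CD11c+ microglia of mice with neuromyelitis optica (NMO), a neuroinflammatory disease, gave 2 libraries (numbered 8 and 7 in their titles, here replicates 1 and 2). CD11c- microglia of NMO mice gave 3 libraries, and control microglia gave 3. Control cells are labelled CD11c negative, yet titled as total microglia from unmanipulated animals, so the gate behind them is uncertain. How NMO was brought about, exact ages and whether every library stems from its own mouse are not stated in the labels, and p-values therefore reflect only how much these libraries vary, which may be technical. Control libraries are numbered 21 to 23 and NMO libraries 7 to 12 in the titles, with no batch given, so disease and handling cannot be told apart.

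ADP-ribosyltransferases move ADP-ribose from NAD onto proteins or nucleic acids. PARP1 and PARP2 build chains of it at broken DNA and so recruit repair factors, whereas most of the other enzymes attach a single unit. Several of those, PARP9 with DTX3L, PARP10, PARP12 and PARP14 among them, are known in macrophages and other cells as products of interferon-stimulated genes with roles against viruses. STAT2 and IRF9 are among the factors that carry type I interferon signals to such genes.

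Parp9 and Dtx3l lie head to head on chromosome 16 of GRCm38 (GENCODE M21): Dtx3l (ENSMUSG00000049502) covers 35926511 to 35939151 on the minus strand and Parp9 (ENSMUSG00000022906) covers 35938470 to 35972605 on the plus strand. Parp14 (ENSMUSG00000034422) lies on the same chromosome from 35832874 to 35871544 on the minus strand. In humans the PARP9 and DTX3L pair is known to share a promoter that answers interferon gamma. RefSeq promoter windows, 250 bases before to 50 bases after a start, were found for 6 of the 9 genes (build GRCm38.p6), and Parp9, Parp10 and Parp14 are named only. The Dtx3l window (chr16:35938978-35939277, minus strand) is shown because it holds part of the stretch that both genes of the pair transcribe. Its capitals mark 141 bases between transcription start sites of protein-coding transcripts, from Dtx3l at 35939151 to Parp9 at 35939011. All of these bases are exonic in both genes. The RefSeq start that defines the window lies inside this stretch, so fewer than 250 bases of the window precede the Dtx3l start at 35939151. The upstream Parp11 window (chr6:127446590-127446889, plus strand) is shown for the only match to an interferon-stimulated response element core among the windows, in capitals. Whether any factor binds there was not tested.
Dtx3l promoter: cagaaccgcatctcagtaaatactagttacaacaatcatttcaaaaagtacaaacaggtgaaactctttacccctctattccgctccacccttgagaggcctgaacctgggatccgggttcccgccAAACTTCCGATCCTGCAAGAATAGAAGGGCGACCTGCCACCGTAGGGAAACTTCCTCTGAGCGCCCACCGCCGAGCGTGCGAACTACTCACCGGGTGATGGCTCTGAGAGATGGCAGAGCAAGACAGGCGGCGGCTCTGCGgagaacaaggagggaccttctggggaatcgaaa
Parp11 promoter: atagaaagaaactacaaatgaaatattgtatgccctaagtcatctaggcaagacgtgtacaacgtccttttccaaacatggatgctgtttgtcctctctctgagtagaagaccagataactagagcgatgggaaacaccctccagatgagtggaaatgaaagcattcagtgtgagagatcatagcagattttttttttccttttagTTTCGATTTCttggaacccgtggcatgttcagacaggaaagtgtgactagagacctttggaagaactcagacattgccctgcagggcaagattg
The windows were searched on both strands for 2 motifs, the interferon-stimulated response element core (GAAA, any 2 bases, GAAA), known from type I interferon responses, and the gamma-activated site core TTCNNNGAA, known from interferon gamma responses. The response element core was matched in 1 window of the 6 genes, upstream of Parp11, where TTTCGATTTC begins 44 bases before the start (minus-strand match). A gamma-activated site core, TTCTTGGAA, overlapped it and began 37 bases before that start. Across all 32851 windows of the table the response element core was matched in 3.44% and the gamma-activated site core in 8.30%. The windows of Parp1, Parp2, Parp8, Parp12 and Dtx3l and the downstream window of Parp11 held neither run of letters, and Parp12 and Parp8 had the windows richest in G and C, at 73.7% and 72.3%.

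Depth was 4943207 and 5914412 counts in the CD11c+ libraries, 6437516 to 6819662 in those of NMO CD11c- microglia and 7500815 to 9246061 in controls, and the 9 genes had 126 to 1475 counts each in every library. The sort was visible in Itgax, which encodes CD11c, at 188 and 181 CPM (the count relative to the TMM-scaled library total) in CD11c+ libraries, 35.5 to 41.3 in NMO CD11c- libraries and 30.6 to 32.1 in controls. All 10 microglia markers had counts in every group, summing to 32732 and 34482 CPM, 34203 to 42389 CPM and 42003 to 46302 CPM in the same order. Transcripts typical of other cells differed between the groups. The 10 neutrophil markers summed to 15.3 and 19.7 CPM in CD11c+ libraries, with Ly6g at 0 counts. Their sums were 2067 to 10682 CPM in NMO CD11c- and 864 to 1774 CPM in control libraries. The 9 monocyte markers summed to 58.0 and 65.0, 210.1 to 1005 and 84.3 to 159.5 CPM in the same order. Dissociation-stress genes summed to 6717 and 30736 CPM in CD11c+ libraries, 5749 to 15376 CPM in NMO CD11c- libraries and 19454 to 41067 CPM in controls. Dendritic cell markers summed to 17.3 and 18.4, 14.96 to 19.0 and 7.70 to 12.1 CPM, and T cell markers to at most 2.26 CPM, with Cd3e and Cd3g at 0 counts in every library. CD11c+ replicate 1 stood apart by base composition: its deviation from the mean of all libraries increased with the GC content of genes (Spearman coefficient across genes 0.592, against -0.299 to -0.0379 in the other 7 libraries, a description with no test). In bulk RNA fewer cells of a type and less RNA per cell cannot be told apart.

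In CD11c- microglia of NMO mice 3 of the 7 genes of the antiviral group rose relative to controls: Parp14 by 1.72-fold, Parp12 by 1.38-fold and Dtx3l by 1.36-fold. Of all tested genes 3.0% were called higher in this comparison, 0.717% lower and 3.72% in either direction. Parp8, Parp9, Parp10 and Parp11 did not pass there, nor did Parp1 and Parp2. In CD11c+ cells Parp14 alone of the 9 passed against controls, by 1.59-fold, where 6.85% of tested genes were called higher, 3.36% lower and 10.2% in either direction. Calls are those of edgeR's quasi-likelihood test with Benjamini-Hochberg adjustment over all 12002 genes (adjusted p under 0.05). The comparisons of the 2 NMO subsets with controls share the same 3 control libraries, so their values are given side by side and not as separate evidence. Of the 10 neutrophil and 9 monocyte markers, 2 and 4 rose in NMO CD11c- cells against control, as did 1 dendritic cell and 1 border-associated macrophage marker, and 2 of 10 dissociation-stress genes fell. In CD11c+ cells against control, all 10 neutrophil markers, 4 of 10 microglia markers, 1 monocyte marker and 1 dissociation-stress gene fell, and 2 monocyte markers and 1 dendritic cell marker rose. Their part in the results was not tested.

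**Figure D1:**
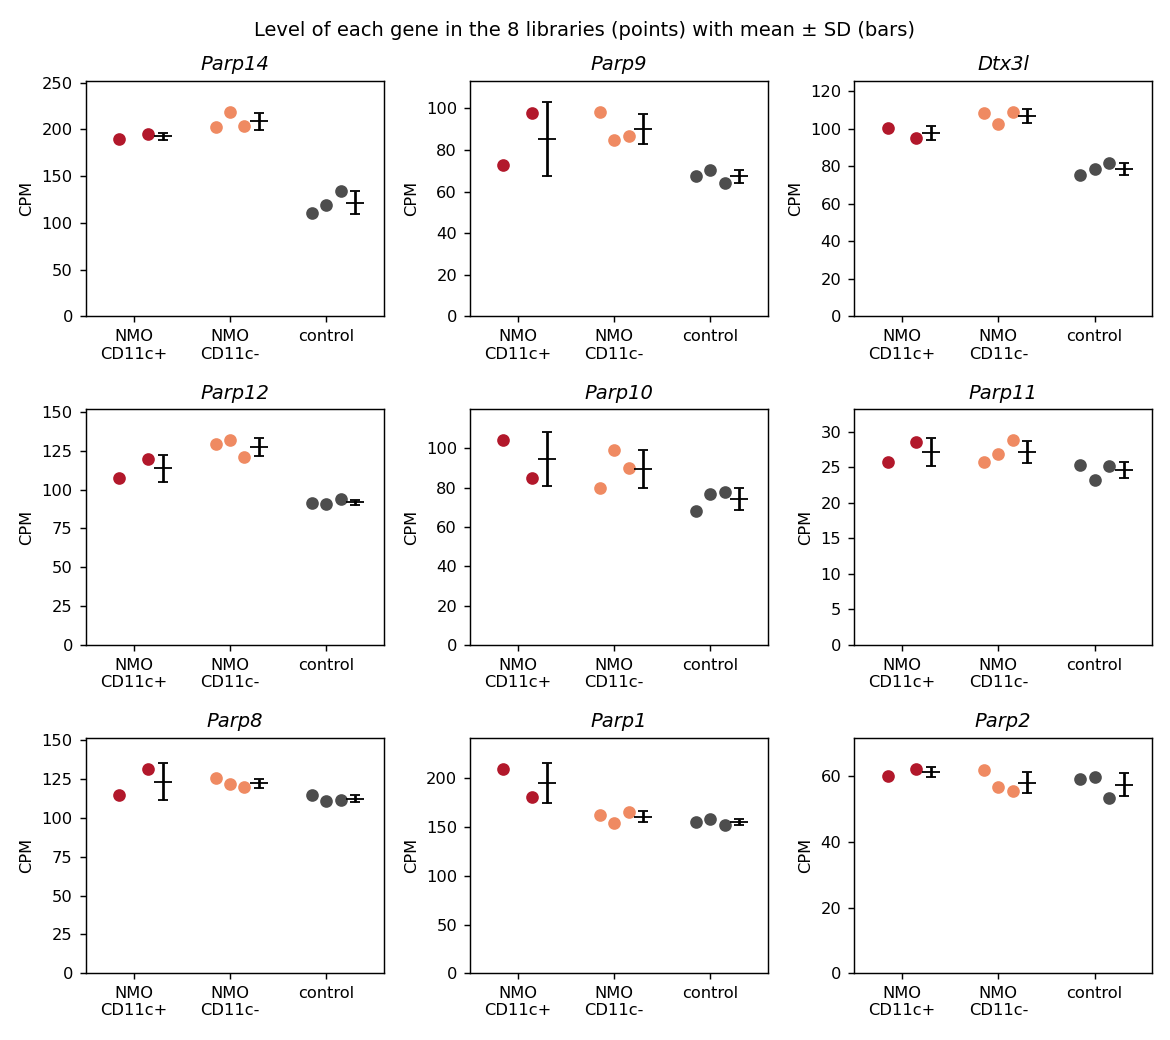
Level of each gene in CPM (y axes from 0, own scale per gene) in NMO CD11c+ (n = 2), NMO CD11c- (n = 3) and control (n = 3) libraries; points are libraries, bars the mean ± SD. Parp14 lies between 190.0 and 219 CPM in the 5 NMO libraries and at or below 134.6 CPM in controls, while Parp2 overlaps between NMO CD11c- and control libraries.

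Parp14 is a large mono-ADP-ribosyltransferase with macrodomains, modules that bind ADP-ribose, and is known to shape interferon and interleukin-4 responses of macrophages. It stood at 190.0 and 195.4 CPM in CD11c+ libraries, 203.0, 218.9 and 203.5 CPM in NMO CD11c- libraries, and 110.6, 119.4 and 134.6 CPM in controls. Every NMO library exceeded every control library, and every CD11c- library of NMO mice exceeded both CD11c+ libraries. Such separations were common: 17.6% of tested genes lay above all controls in NMO CD11c- cells and 22.2% in CD11c+ cells. Between the subsets, 14.2% had both CD11c+ libraries below all CD11c- libraries. The same shares apply to the separations of Dtx3l, Parp9 and Parp12 from controls given below. In NMO CD11c- cells the mean was 208 ± 9.03 CPM, against 122 ± 12.1 CPM in controls (SD, n = 3 each; log2 fold change 0.78, SE 0.100, adjusted p = 0.00240). For CD11c+ cells it was 193 ± 3.83 CPM (SD, n = 2) against the same controls (log2 fold change 0.67, SE 0.110, adjusted p = 0.00525). Both calls held under all 17 alternatives tried, with log2 fold changes of 0.71 to 0.86 and 0.60 to 0.84. Parp14 in CD11c+ minus CD11c- cells was -0.11 (95% interval -0.36 to 0.13, adjusted p = 0.617).

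Parp9 and Dtx3l encode partners: PARP9 has macrodomains and a transferase fold long held to lack activity of its own, and DTX3L is a Deltex-type E3 ubiquitin ligase that works with it in DNA damage and interferon responses. Dtx3l was at 100.3 and 94.96 CPM in CD11c+ libraries, 108.5, 102.5 and 109.0 CPM in NMO CD11c- libraries, and 75.3, 78.4 and 81.6 CPM in controls. No NMO library overlapped a control library. The NMO CD11c- cells had a log2 fold change of 0.44 for Dtx3l (SE 0.0843, adjusted p = 0.0191), a call lost without any single NMO CD11c- or control library (adjusted p 0.0517 to 0.119) although the difference stayed at 0.41 to 0.47. In CD11c+ cells it did not pass (0.32, 95% interval 0.10 to 0.53, adjusted p = 0.0607), but did after correction for GC content and length (0.45, adjusted p = 0.00529). Without CD11c+ replicate 2 the Dtx3l value was 0.35. Parp9 was at 72.7 and 97.6 CPM in CD11c+ libraries, 98.3, 84.8 and 86.7 CPM in NMO CD11c- libraries, and 67.5, 70.4 and 64.1 CPM in controls. Again all NMO libraries lay above all controls, but the CD11c+ libraries lay far apart. Parp9 in NMO CD11c- cells had a log2 fold change of 0.42 (SE 0.120, 95% interval 0.15 to 0.68), close to that of Dtx3l, with an adjusted p of 0.0889. It passed in 6 of 17 alternatives. Among them was the fit of only the NMO CD11c- and control libraries (adjusted p = 0.0105), which also called more of all tested genes than the fit reported. For CD11c+ cells the Parp9 value was 0.34 (95% interval 0.042 to 0.64, adjusted p = 0.128) with both libraries, 0.53 without replicate 1 and 0.11 without replicate 2. The ratio of Dtx3l to Parp9 counts was 1.38 and 0.973 in CD11c+ libraries, 1.10 to 1.26 in NMO CD11c- libraries and 1.11 to 1.27 in controls. The CD11c+ libraries lay one above and one below the range of the controls. Gene models of the pair share 458 exonic bases, 9.40% of Parp9 and 8.00% of Dtx3l exons, and how reads there were assigned is not given in the sources used here.

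Parp12 (ENSMUSG00000038507, chromosome 6, 39086410 to 39118349, minus strand) encodes a zinc-finger mono-ADP-ribosyltransferase known to restrict RNA viruses. Its levels were 107.4 and 119.8 CPM in CD11c+ libraries, 129.3, 131.7 and 120.6 CPM in NMO CD11c- libraries, and 91.1, 90.8 and 93.6 CPM in controls, with the controls close together and below all 5 NMO libraries. With a log2 fold change of 0.47 it rose in NMO CD11c- cells (SE 0.0878, adjusted p = 0.0178). That call was lost without NMO CD11c- replicate 1 (adjusted p = 0.0678) or 2 (0.0702) or any control replicate (0.0777 to 0.101), with the difference between 0.44 and 0.48 in these fits. In CD11c+ cells Parp12 did not pass (0.31, 95% interval 0.088 to 0.53, adjusted p = 0.0733). Without CD11c+ replicate 1 its value was 0.38.

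None of the other 3 genes of the group passed with all libraries. Parp10 (ENSMUSG00000063268) lies on chromosome 15 from 76231174 to 76243441, Parp11 (ENSMUSG00000037997) on chromosome 6 from 127446840 to 127494261 and Parp8 (ENSMUSG00000021725) on chromosome 13 from 116854820 to 117025537. Parp10, a mono-ADP-ribosyltransferase with an RNA-binding domain, was at 104.2 and 84.9 CPM in CD11c+ libraries, 79.9, 99.1 and 89.9 CPM in NMO CD11c- libraries, and 68.0, 77.0 and 77.8 CPM in controls. Its log2 fold changes against control were 0.35 (95% interval 0.055 to 0.64, adjusted p = 0.115) in CD11c+ and 0.27 (0.011 to 0.53, adjusted p = 0.244) in CD11c- cells. The CD11c+ value was 0.13 with GC and length corrected (adjusted p = 0.434), 0.19 without CD11c+ replicate 1 and 0.48 without replicate 2. Parp10 has the highest transcript GC content of the 9 genes, 57.9%, and shares 205 exonic bases (4.80%) with Plec. Parp11 acts at the nuclear envelope, and its upstream window has the motif match shown above. It was the lowest of the 9 genes at 25.7 and 28.5 CPM in CD11c+, 25.7 to 28.8 CPM in NMO CD11c- and 23.2 to 25.3 CPM in control libraries. Differences from control were 0.14 in both subsets (95% intervals -0.14 to 0.42 in CD11c+ and -0.11 to 0.39 in CD11c- cells). Parp8, a less studied mono-ADP-ribosyltransferase, was at 114.8 and 131.4 CPM in CD11c+, 119.6 to 125.2 CPM in NMO CD11c- and 111.0 to 114.6 CPM in control libraries (log2 fold changes 0.13, 95% interval -0.086 to 0.35, and 0.12, -0.074 to 0.32). Parp8 has the lowest transcript GC content of the 9, 41.0%, and passed in CD11c+ cells only with GC and length corrected (0.38, adjusted p = 0.0188).

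**Figure D2:**
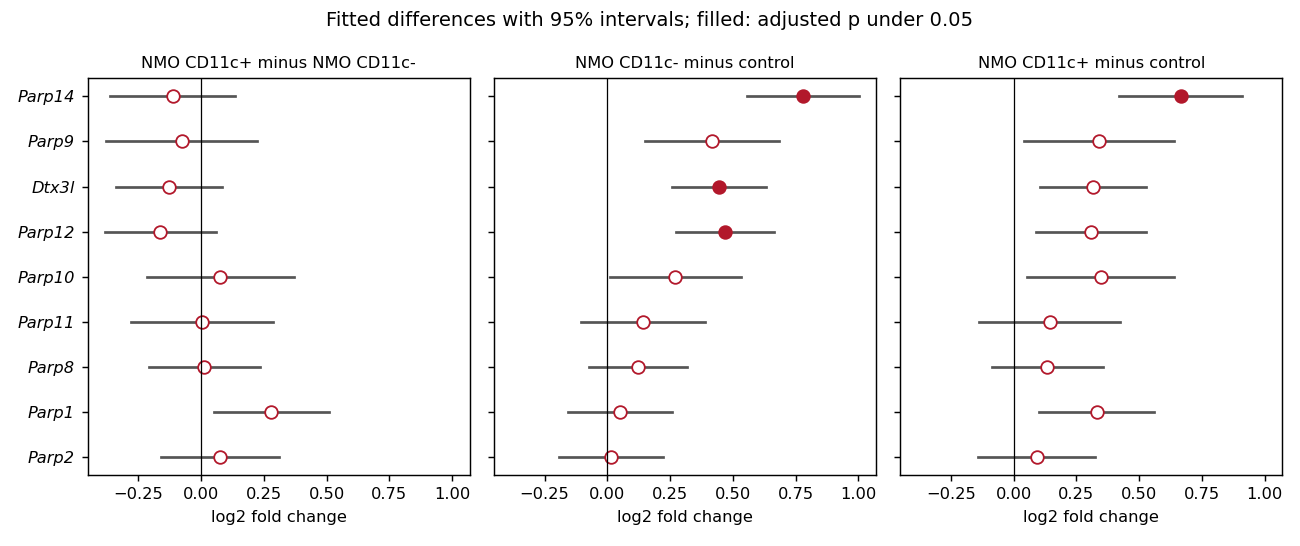
Fitted log2 fold change (x axis) of each gene in the 3 comparisons, with 95% intervals; filled points have an adjusted p under 0.05. Parp14 is filled in both comparisons with controls, Parp12 and Dtx3l are filled for NMO CD11c- cells, and no gene is filled between the NMO subsets.

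Parp1 (ENSMUSG00000026496, chromosome 1, 180568924 to 180601254) and Parp2 (ENSMUSG00000036023, chromosome 14, 50807841 to 50821301) served as family members outside the antiviral group. Parp1, the main sensor of DNA breaks, was at 209.6 and 180.4 CPM in CD11c+ libraries, 162.2, 154.3 and 165.2 CPM in NMO CD11c- libraries, and 155.1, 158.0 and 151.7 CPM in controls. Both CD11c+ libraries lay above all the others, whereas NMO CD11c- and control libraries overlapped. Of all tested genes 22.2% had both CD11c+ libraries above all controls, and 13.8% had both above all NMO CD11c- libraries. NMO CD11c- cells differed from controls by 0.051 (95% interval -0.15 to 0.26, adjusted p = 0.819). CD11c+ cells had a log2 fold change of 0.33 against control (95% interval 0.10 to 0.56, adjusted p = 0.0679) and 0.28 against CD11c- cells (0.050 to 0.51, adjusted p = 0.259). Neither passed with all libraries, although DESeq2 called Parp1 against control (adjusted p = 0.0383). Without CD11c+ replicate 2, which leaves only the library with the GC trend, these values were 0.43 and 0.38. Without replicate 1, the library with that trend, they were 0.22 and 0.17. With 1 CD11c+ library left, its spread is taken from the other groups, so only the size of the difference is given. Parp2, which shares break sensing with PARP1, was at 60.1 and 62.2 CPM in CD11c+, 55.5 to 61.6 CPM in NMO CD11c- and 53.2 to 59.7 CPM in control libraries. Its differences from control were 0.091 (95% interval -0.14 to 0.32) in CD11c+ and 0.015 (-0.19 to 0.22) in CD11c- cells.

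For the 7 genes of the antiviral group the median log2 fold change was 0.32 for CD11c+ cells and 0.42 for NMO CD11c- cells against control, beside medians of 0.0061 and -0.0040 over all tested genes. All 7 had every NMO CD11c- library above every control library, a separation that 17.6% of tested genes showed in that direction and 16.1% in the other. All 7 were also separated for CD11c+ cells, as were 22.2% of tested genes in that direction and 21.5% in the other. Parp1 and Parp2 were likewise above all controls in CD11c+ cells, and overlapped them in CD11c- cells. Summed over the list, 715 and 753 CPM were counted in CD11c+ libraries, 758 to 785 CPM in NMO CD11c- libraries and 552 to 588 CPM in controls. For Parp1 and Parp2 the sums were 270 and 243 CPM, 211 to 224 CPM and 205 to 218 CPM in the same order.

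Of the 9 genes 0 passed between the NMO subsets with edgeR's quasi-likelihood test, and DESeq2 and edgeR's exact test also made 0 calls. Across tested genes 0.100% were called higher, 0.183% lower and 0.283% in either direction. At an unadjusted p under 0.05 there was 1, Parp1. Parp1 ranked 1017th of the 12002 tested genes in that comparison, so at least 1017 genes lay under this threshold. Parp12, Parp14 and Dtx3l had both CD11c+ libraries below all CD11c- libraries, a separation that 14.2% of tested genes showed. Parp1 had both above them, as did 13.8%. The fitted differences of the antiviral group ran from -0.16 (Parp12, 95% interval -0.38 to 0.058) to 0.076 (Parp10, -0.22 to 0.37). The intervals reach from -0.38 to 0.37, so equal levels in the subsets are not shown.

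**Figure D3:**
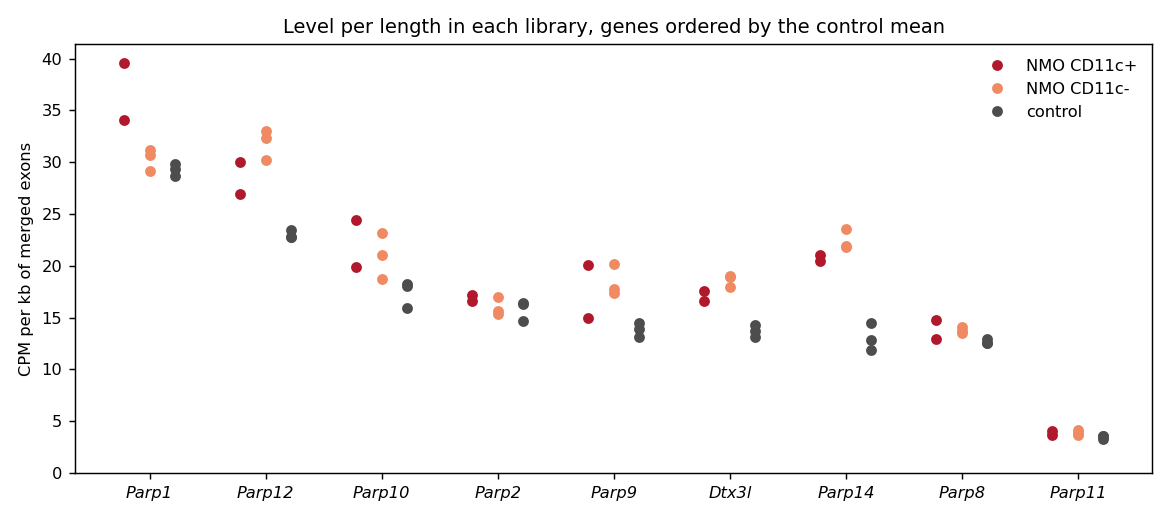
CPM per kilobase of merged exons (y axis, from 0) in each library, genes ordered left to right by their control mean; colours mark NMO CD11c+, NMO CD11c- and control libraries. Parp14 lies near Parp9 and Dtx3l in controls and above both in every NMO library, and Parp11 is lowest throughout.

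Per kilobase of merged exons, Parp14 ranked 4 of 9 in CD11c+ and 3 in NMO CD11c- cells, against 7 in controls. In controls Parp1 was highest at 29.3 ± 0.596 CPM per kb (SD, n = 3), followed by Parp12 at 23.0, Parp10 at 17.4, Parp2 at 15.8, Parp9 at 13.8, Dtx3l at 13.7, Parp14 at 13.1, Parp8 at 12.6 and Parp11 at 3.50. Within that order the library ranges of Parp10 and Parp2 overlapped, as did those of the run Parp9, Dtx3l, Parp14 and Parp8, each with the next. NMO CD11c- libraries had Parp12 at 31.8 ± 1.46 and Parp1 at 30.3 ± 1.06 CPM per kb, overlapping in range, and then Parp14 at 22.4 ± 0.970, Parp10 at 21.0, Dtx3l at 18.6 and Parp9 at 18.5, each overlapping in range with the next. In CD11c+ libraries Parp1 led at 36.8 ± 3.90 (SD, n = 2) over Parp12 at 28.4, Parp10 at 22.1, Parp14 at 20.7, Parp9 at 17.5 and Dtx3l at 17.1. There the overlapping neighbours were Parp10 with Parp14, Parp9 with Dtx3l, and Dtx3l with Parp2. Parp2, Parp8 and Parp11 closed both NMO orders, at 16.8, 13.9 and 3.86 CPM per kb in CD11c+ and 15.98, 13.7 and 3.86 in CD11c- cells. Levels per length depend on the gene model: with the longest transcript as the length, Parp8 averaged 34.5 over the 8 libraries, against 13.4 with merged exons. With that length Parp14 was at 25.6 and 26.3 in the CD11c+ libraries, below Parp2 (27.6 and 28.6) and Parp8 (33.4 and 38.2). The ranks and orders above are therefore those of merged exons and change with the length used.

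Of the 8 remaining PARP family genes, all tested, 0 were called in CD11c+ or CD11c- cells against control, where 10.2% and 3.72% of tested genes were called in either direction, with median log2 fold changes of -0.23 and -0.080; an unadjusted p under 0.05 was reached by 0 and 1 genes, DESeq2 and the exact test called 0, and leaving out 1 library gave up to 3 and 1 calls. Zc3hav1, the zinc-finger antiviral protein, was at 107 and 135 CPM in CD11c+, 126 to 137 CPM in NMO CD11c- and 99.1 to 108 CPM in control libraries (log2 fold change 0.23, adjusted p = 0.223, and 0.35, adjusted p = 0.101). It passed in 2 and 4 of 17 alternatives. Tiparp, a mono-ADP-ribosyltransferase induced by the aryl hydrocarbon receptor, had values of -0.38 (adjusted p = 0.184) and -0.19 (adjusted p = 0.559). Parp4 and Tnks, a tankyrase, had values of -0.26 and -0.23 in CD11c+ and -0.20 and -0.11 in CD11c- cells. Of 5 tested genes that remove ADP-ribose 0 were called in either comparison. Their median was 0.027 in CD11c+ cells (range -0.30 to 0.18) and -0.044 in CD11c- cells (range -0.27 to 0.098). Parg, the chain-cutting glycohydrolase, stood at -0.30 (adjusted p = 0.137) and -0.16 (0.468), and Adprh at -0.21 and -0.27. Unadjusted p under 0.05 was reached by 1 of the 5 in each comparison, DESeq2 and the exact test called 0, and leaving out 1 library gave up to 2 and 1 calls. Among 7 partners of PARP1 in strand-break repair edgeR, DESeq2 and the exact test called 0 against control. An unadjusted p under 0.05 was reached there by 0 genes in CD11c+ and 1 gene in CD11c- cells, and leaving out 1 library gave 0 calls in CD11c- cells. Hpf1, a cofactor of PARP1, was at -0.37 in CD11c+ cells with all libraries (adjusted p = 0.203) and at -0.73 without CD11c+ replicate 2, which leaves 1 CD11c+ library. Aplf, a repair factor that binds ADP-ribose chains, had values of 0.18 (adjusted p = 0.649) and -0.65 (adjusted p = 0.149), and DNA polymerase beta, Polb, had -0.27 and -0.23.

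Among Deltex ligases other than Dtx3l, 1 of 3 tested genes rose in CD11c+ cells, where 6.85% of all tested genes were called higher: Dtx3 was at 231 and 180.4 CPM there, against 124, 124 and 115 CPM in controls (log2 fold change 0.76, SE 0.129, adjusted p = 0.00573), and at 137 to 162 CPM in NMO CD11c- cells (0.28, adjusted p = 0.236). The CD11c+ call for Dtx3 was made in 17 of 17 alternatives, with log2 fold changes of 0.49 to 0.93. Of 12 tested genes of NAD supply and use edgeR called 0 in CD11c- cells, beside 3.72% of all tested genes in either direction. DESeq2 called 1 and the exact test 2, and both also called more of all tested genes than the quasi-likelihood test. An unadjusted p under 0.05 was reached by 3 of the 12. Such values were common among all 12002 tested genes, which also applies to the counts given for the lists above. Under the same threshold, against control, Parp9 ranked only 2760th in CD11c+ cells and Parp10 only 2106th in NMO CD11c- cells. Nampt, the rate-limiting enzyme of NAD salvage, was at 77.6 to 84.2 CPM in those cells against 59.7 to 62.7 CPM in controls (0.39, SE 0.0962, adjusted p = 0.0540), and passed in 9 of 17 alternatives. Bst1, an NAD-consuming surface enzyme, was at 1.66 to 2.54 CPM there and at 0.611 to 0.915 CPM in controls (1.48, adjusted p = 0.0637). In CD11c+ cells edgeR called 1 of the 12, beside 10.2% of all tested genes, with 4 at an unadjusted p under 0.05, 1 called by DESeq2 and 2 by the exact test. The gene called was the NAD-dependent deacetylase Sirt2 (0.53, adjusted p = 0.0459), named after its value was seen, at 199 and 135 CPM in CD11c+ libraries and 112 to 118 CPM in controls. The call for Sirt2 held in 8 of 17 alternatives and was lost, among others, without CD11c+ replicate 1 or any single CD11c- or control library (adjusted p up to 0.166).

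Of the interferon factors Stat2, Irf9, Irf1 and Irf7, 2 rose in CD11c+ cells (6.85% of tested genes were called higher) and 3 in NMO CD11c- cells (3.0%) against control. Stat2 was at 153.6 and 158.6 CPM in CD11c+, 149.7 to 176.0 CPM in NMO CD11c- and 79.6 to 85.3 CPM in control libraries (log2 fold change 0.92, adjusted p = 0.000694, and 0.96, adjusted p = 0.000500). Irf9 rose in CD11c- cells (0.40, adjusted p = 0.0358), a call lost without any single CD11c- or control library (adjusted p up to 0.195), and had a value of 0.24 in CD11c+ cells (adjusted p = 0.133). Irf7, itself an interferon-induced factor that amplifies the response, was at 77.0 and 76.8 CPM in CD11c+, 55.7 to 80.9 CPM in NMO CD11c- and 13.1 to 19.0 CPM in control libraries (2.29, adjusted p = 9.26e-05, and 2.07, adjusted p = 0.000163). The calls for Stat2 and Irf7 held in 17 of 17 alternatives in both comparisons. Irf1, a factor induced mainly by interferon gamma, had values of 0.25 (adjusted p = 0.193) and 0.0043 (adjusted p = 0.989).

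**Figure D4:**
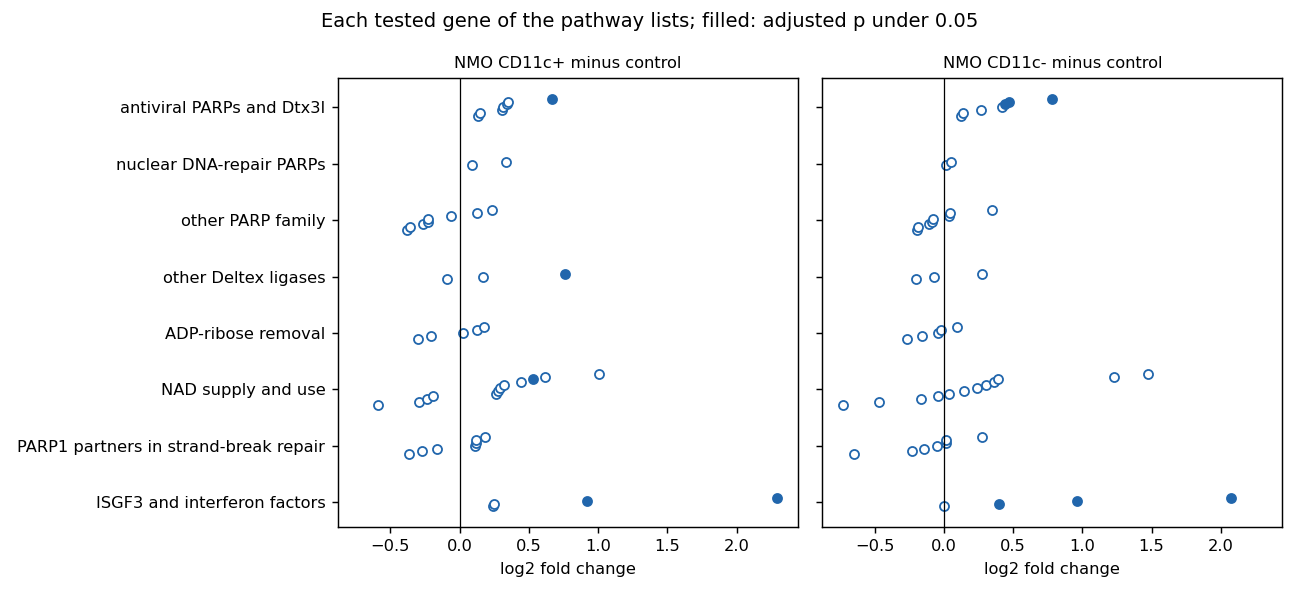
Log2 fold change (x axis) of each tested gene of 8 lists, NMO CD11c+ minus control on the left and NMO CD11c- minus control on the right; filled points have an adjusted p under 0.05. In NMO CD11c- cells the filled points are 3 genes of the antiviral group and 3 interferon factors, the largest being Irf7 at 2.07.

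Genes whose pattern over the 8 libraries was most like that of Parp14, Parp9 or Dtx3l were found by the root mean square difference in log2 CPM after centring each gene on its own mean, among 9801 genes at 5 CPM or more. Nearest to Parp14 was Irgm1, an interferon-induced GTPase (0.072), then Stag3 (0.084) and Per3 (0.097). Gk (0.073), Rassf4 (0.076) and Dnajc10 (0.081) lay nearest to Parp9. Mms22l (0.054), H2-T24 (0.060) and Foxred1 (0.064) lay nearest to Dtx3l. Parp12 was the 13th nearest gene to Dtx3l and the 32nd to Parp9. Parp9, the head-to-head neighbour, was 284th to Dtx3l, and Dtx3l was 160th to Parp9. The centred values of the pair lay furthest apart in CD11c+ replicates 1 and 2, at -0.124 and 0.299 for Parp9 and 0.109 and 0.031 for Dtx3l. The 8 libraries fall into 3 groups, whose means the measure shares.

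**Figure D5:**
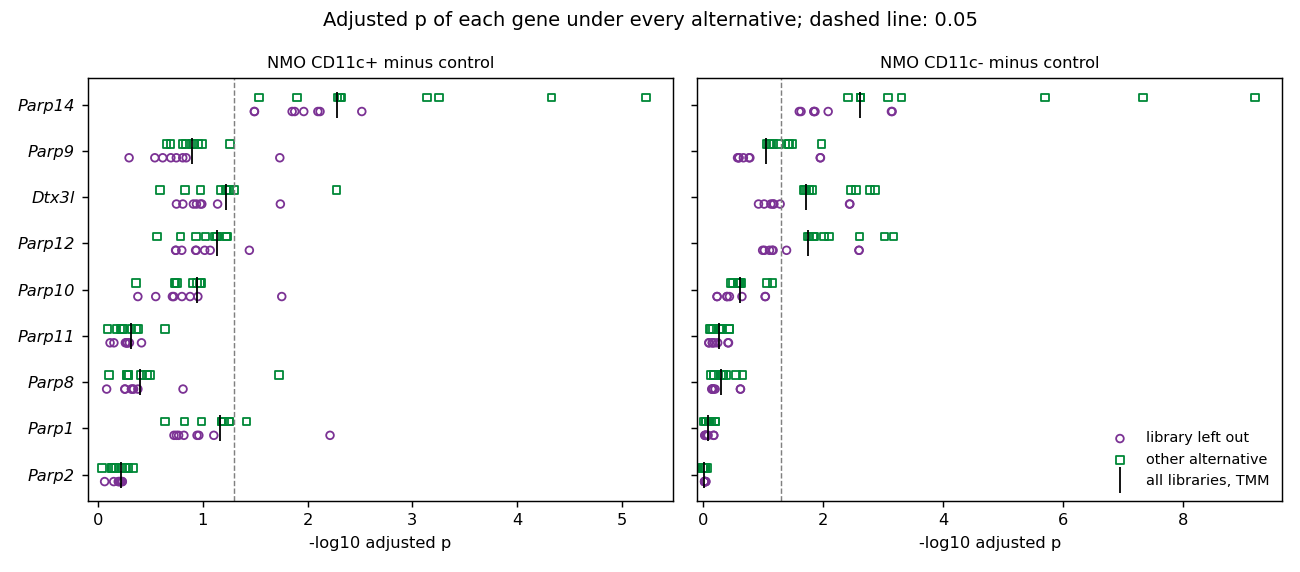
Adjusted p on a -log10 scale (x axis) of each gene under 17 alternatives, NMO CD11c+ minus control on the left and NMO CD11c- minus control on the right; circles leave out 1 library, squares are other alternatives, black bars the fit reported, and the dashed line 0.05. Parp14 stays right of the line throughout, while Dtx3l and Parp12 in NMO CD11c- cells cross it when single libraries are left out.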

How the data were processed

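STAR, HTSeq 0.5.4, edgeR 3.12.0 and the build GRCm38 are named in the submitters' processing notes; strand setting and annotation release: not given in the sources used here. Deposited values are raw counts, 1 file per library, with 0 columns left unused. Symbols, positions, lengths and GC content came from GENCODE M21.

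In R 4.3.3 with edgeR 4.0.16, genes passed filterByExpr (minimum count 10), libraries were scaled by TMM, and all 8 entered 1 quasi-likelihood fit with contrasts of group means. Calls have an adjusted p under 0.05 (Benjamini-Hochberg, 12002 genes). SE is the log2 fold change over the root of F, and 95% intervals use the residual and prior degrees of freedom (5 and 5.08). Group values are mean ± SD. Levels per length divide CPM by merged exon length. The pipeline was tested on simulated data. The genes and lists were chosen with earlier results of these data known. All members are named; of other lists up to 4 genes by adjusted p in NMO CD11c- against control, plus Stat2, Irf9, Zc3hav1 and Tiparp; 1 gene of that rule is not reported here. Alternatives were other scalings and low-count filters, DESeq2 1.42.0, edgeR's exact test, a fit of the compared groups alone, a GC and length correction (mgcv) and each library left out in turn.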

Additional observations from a re-analysis of the deposited data

How the results depend on the processing

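No paired analysis was possible because replicates were numbered by accession and no label ties libraries of different groups to each other. The count of the 9 genes called in NMO CD11c- against control, 3, was 3 or 4 under the other settings and 1 to 4 with 1 library left out (Parp14 alone at the lowest). In CD11c+ against control, 1 became 2 with DESeq2, 3 after GC and length correction and 1 to 4 with 1 library left out. Between the subsets 0 became 0 to 1. Over all genes, the 34 calls between the subsets became 707 with no low-count filter, 268 with DESeq2, 305 with the exact test, 5 with only the groups compared and 4 (without CD11c+ replicate 1) to 3016 (without CD11c+ replicate 2) with 1 library left out. In NMO CD11c- against control 446 became 1157 with no filter, 696 with DESeq2, 881 with the exact test, 1221 with only the groups compared, 931 after GC and length correction and 141 to 1193 with 1 library left out. For CD11c+ against control 1225 became 2115 with no filter, 627 with only the groups compared and 487 to 4077 with 1 library left out. The cause was not tested.

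Some uncalled values near 0 changed sign. Between the subsets, Parp8 was -0.050 and Parp11 -0.058 with library size only, -0.013 and -0.023 with no filter, and Parp10 -0.17 after GC and length correction. With 1 library left out Parp8 ranged from -0.091 to 0.11, Parp9 from -0.31 to 0.12, Parp10 from -0.078 to 0.22 and Parp11 from -0.077 to 0.074. Parp2 in NMO CD11c- against control was -0.0017 with no filter and -0.036 to 0.045 with 1 library left out. Levels averaged over libraries, per kilobase of longest transcript, were 34.5 for Parp8, 22.6 for Parp9, 25.0 for Parp10, 6.99 for Parp11, 34.2 for Parp12, 23.2 for Parp14, 43.1 for Parp1 and 26.9 for Parp2, against 13.4, 16.5, 19.9, 3.73, 27.7, 18.5, 31.6 and 16.1 with merged exons. Without 1 of the 2 CD11c+ libraries, the other is assumed to vary like the other groups.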
